A study of Drosophila melanogaster with 8 samples.

Results

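The genes of RNA-binding proteins described here are elav, fne, Rbp9, Rbp6, msi, shep, bru-3, mub, Fmr1 and orb2, which are 10 of the 14210 genes listed in every library. They were taken by name, as the rows whose gene symbol matched. RNA was measured in 3 biological replicates of sorted neuroblasts, sequenced as 5 libraries, and in 2 of sorted neurons, sequenced as 3 libraries. Both cell types came from brains of larvae late in the third instar, labelled wild type, in which asense-Gal4 drove UAS-stingerGFP, a nuclear green fluorescent protein. Neuroblasts are the neural stem cells of the fly, and the neurons are labelled as their differentiated daughter cells. The driver is that of a gene active in neuroblasts and young progeny, both cell types carry the same GFP label, and the sources used here do not give the gate that separated them. The neurons are thus GFP-labelled cells of the larval brain and need not stand for mature neurons of the adult.

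RNA-binding proteins of this kind act after transcription. ELAV and its relatives FNE and RBP9 bind uridine-rich sequence in nascent and mature transcripts and direct neuronal alternative splicing and the use of distal polyadenylation sites. Musashi proteins bind short motifs in messenger RNA and mostly repress its translation, and both FMR1 and the CPEB protein ORB2 control translation at synapses. ELAV protein is a standard label for fly neurons, although elav transcription has also been described in embryonic neuroblasts and glia.

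Of the 10 genes, 8 were lower in neuroblasts than in neurons, 0 were higher in neuroblasts, and msi and Fmr1 did not pass the test. Fold changes are neuroblast minus neuron on the log2(FPKM + 1) scale, where FPKM is a gene's fragment count scaled to its transcript length and to the size of the library, and a gene was called at a limma adjusted p under 0.05 over the 7975 genes tested. All 10 genes passed the filter on low values. Of all tested genes, 33.4% were higher in neuroblasts by this test, 29.9% were lower there than in neurons, and 63.3% were called in either direction. The replicates of the cell types did not overlap for 8 of the 10 genes, all with neurons higher, against 36.8% of all tested genes with neurons higher, 41.8% with neuroblasts higher and 78.6% in either direction. The median log2 fold change was -2.40 over the 10 genes and 0.17 over all tested genes. The 10 genes were chosen with earlier results of these data known, so these counts and medians describe them and are no test. At an unadjusted p under 0.05 limma also found 0 of the 10 higher in neuroblasts, and the authors' deposited table listed 0 in that direction. Without neuron 2 the count of the 10 called higher in neurons was 3, without neuron 1 it was 5, and within the flow cell that held both cell types it was 5. In such bulk samples fewer cells of a type and less RNA per cell cannot be told apart. The labels do not say whether each replicate was its own set of animals or its own sort. The p-values therefore rest on the spread of these samples alone, which may be technical.

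**Figure D1:**
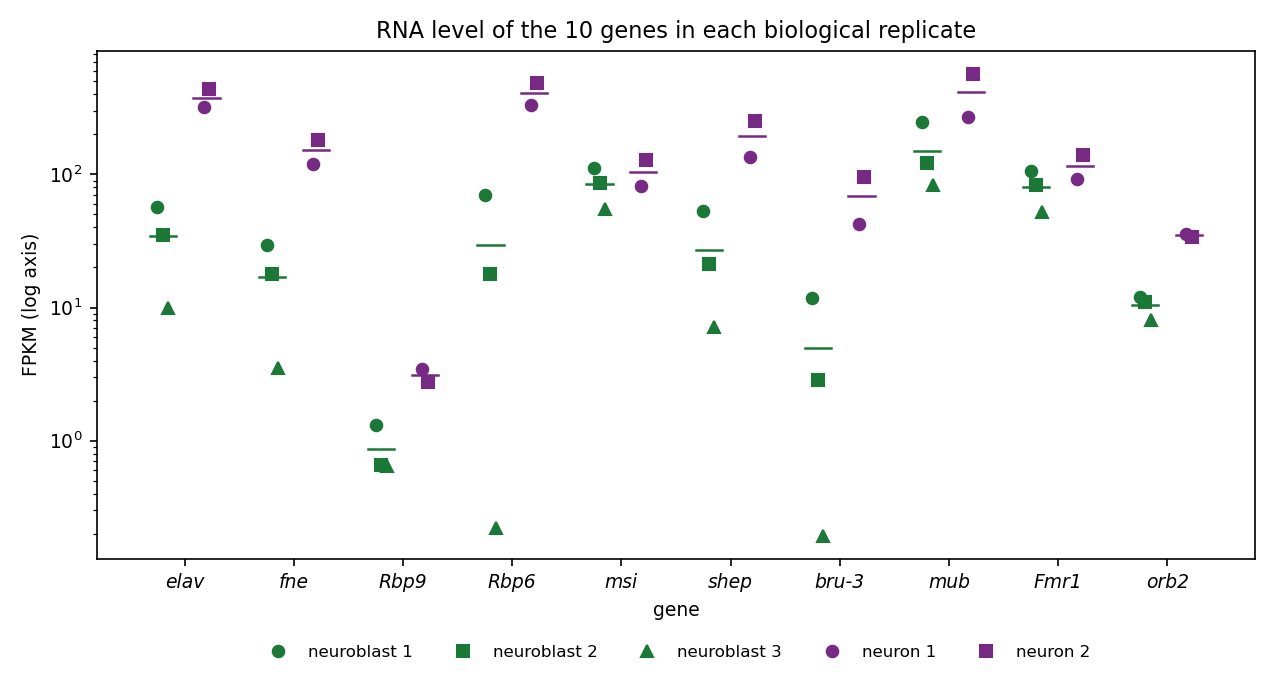
Level of each of the 10 genes in every biological replicate, in FPKM on a log axis, with neuroblasts in green on the left and neurons in purple on the right. Circles, squares and triangles are replicates 1, 2 and 3, and short lines are means. For every gene but msi and Fmr1 all 3 neuroblast replicates lie below both neuron replicates, and neuroblast 3 is the lowest point of each gene.

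The markers of the labelled cell types went with the labels, with 8 of 8 neuroblast markers called higher in neuroblasts and 9 of 9 neuron markers called lower in them. The 9 neuron markers, genes of synaptic vesicles, the active zone and transmitter synthesis, summed to 107 FPKM in neuroblast 1, 39.6 in neuroblast 2 and 1.55 in neuroblast 3, against 525 and 812 in neurons 1 and 2. None of the 9 was at 0 in all replicates of a cell type. Glial markers summed to 244, 166 and 220 FPKM in neuroblasts and 106 and 137 in neurons, with 2 of 8 called higher in neuroblasts and 5 lower. The defining glial gene repo, among the 5, stayed at 1.06 FPKM or less in neuroblasts and at 7.97 and 9.66 in neurons. The 2 called higher in neuroblasts were Eaat1, with means of 65.1 FPKM there and 9.05 in neurons, and loco, with 18.2 and 6.74. The largest glial value in every replicate was that of nrv2, at 155, 83.3 and 131 FPKM in neuroblasts and 52.2 and 81.3 in neurons, which was not called. Hemocyte markers summed to at most 0.695 FPKM in neuroblasts and at most 5.25 in neurons, tracheal markers to at most 1.98 in neuroblasts and 5.74 in neurons, and fat body markers to at most 0.109 in neuroblasts and 0.703 in neurons. Each library's FPKM summed over its genes to between 321551 and 343514 in neurons and between 449268 and 753682 in neuroblasts. The fragments of single-transcript genes were read back from the width of the Cufflinks intervals. In neurons they summed to between 953171, in neuron 2, and 1443262. In neuroblasts they summed to between 2184305 and 16282071, the latter in the second library of neuroblast 3. Both the FPKM sum and the depth thus differed with cell type, without overlap. What part glial RNA or depth had in the results below was not tested.

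In the ELAV family all 3 genes were lower in neuroblasts. The pan-neuronal gene elav (FBgn0260400, chromosome X, 406496 to 417259) was listed at 57.2, 35.3 and 10.01 FPKM in neuroblasts 1, 2 and 3, and at 321 and 435 in neurons 1 and 2. Both neuron replicates lay above every neuroblast replicate, and among neuroblasts replicate 1 was highest and replicate 3 lowest. This gave elav a log2 fold change of -3.71 (SE 0.65, 95% confidence interval -5.26 to -2.17, limma adjusted p = 0.00271). At 34.2 ± 23.6 FPKM (SD, n = 3) elav ranked 2480th by mean level among 14210 genes in neuroblasts, and at 378 ± 81.1 (SD, n = 2) it ranked 138th in neurons.

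The close relative fne, found in neurons, where it can also stand in for ELAV in the nucleus, showed the same arrangement at a lower level. It was listed at 29.3, 17.8 and 3.52 FPKM in neuroblasts and at 121 and 182 in neurons (FBgn0086675, chromosome X, 12811510 to 12843763). No neuroblast replicate reached a neuron replicate, and neuroblast 3 was again lowest. The log2 fold change of fne was -3.45 (SE 0.75, limma adjusted p = 0.00631), and without neuron 2 it was -3.15 and not called (limma adjusted p = 0.0626). Rbp9, which is expressed in the nervous system and is also needed in egg development, was the least abundant of the 10 genes (FBgn0010263, chromosome 2L, 2954762 to 2968434). It was listed at 1.32, 0.654 and 0.644 FPKM in neuroblasts and at 3.47 and 2.77 in neurons. These groups did not overlap, but the gene would have entered the test on its neuron values alone. Rbp9 had a log2 fold change of -1.14 (SE 0.27, limma adjusted p = 0.00851), and without neuron 1 it was -1.03 and not called (limma adjusted p = 0.0586). At so low a level the value also moved with the pseudocount, from -1.78 with 0.1 to -0.47 with 5, both called, and with quantile normalization it was -0.41 and not called (limma adjusted p = 0.222). In neuron 1 the technical libraries of Rbp9 gave 4.19 and 2.75 FPKM, the widest technical ratio of the 10 genes at 1.52, against a median of 1.05. In the reference annotation exons of elav overlap lncRNA:enrr on the same strand and arg on the other, and those of Rbp9 overlap Ts on the other strand, and whether counting used the strand is not stated in the sources used here.

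Because FPKM is per length, levels within the family can be set side by side. The summed FPKM of elav, fne and Rbp9 was 87.8, 53.8 and 14.2 in neuroblasts and 445 and 620.0 in neurons. Of this sum elav made up 65.2%, 65.7% and 70.6% in neuroblasts and 72.1% and 70.2% in neurons. The mean shares, 67.2% ± 3.02 (SD, n = 3) in neuroblasts and 71.1% ± 1.33 (SD, n = 2) in neurons, differed by -3.96 percentage points, which an exact two-sided permutation test gave p = 0.4 where 0.2 is the smallest that 10 arrangements allow. For fne the shares were 33.3%, 33.1% and 24.8% in neuroblasts and 27.1% and 29.4% in neurons, so the shares of both genes overlapped between the cell types while the summed levels did not.

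Of the 2 Musashi family genes, Rbp6 was lower in neuroblasts and msi was not called. Rbp6 (FBgn0260943, chromosome 3L, 17052096 to 17231310) encodes the second fly Musashi-type protein, and was listed at 69.6, 17.97 and 0.220 FPKM in neuroblasts and at 331 and 489 in neurons. Neuroblast 1 was 317 times neuroblast 3, the widest spread among neuroblasts of the 10 genes, while the neurons differed by 1.48 times. The separate libraries of neuroblast 3 gave 0.205 and 0.235 FPKM, with Cufflinks intervals of 0.111 to 0.298 and 0.176 to 0.295. The log2 fold change of Rbp6 was the largest in size of the 10 genes, -5.10, with the widest error (SE 1.48, 95% confidence interval -8.61 to -1.59, limma adjusted p = 0.0204). It was -5.38 without neuron 1 (limma adjusted p = 0.0900) and -4.82 without neuron 2 (limma adjusted p = 0.119), so neither fit called it, and within the shared flow cell it was -3.18 (limma adjusted p = 0.0436). In the reference annotation its exons overlap asRNA:CR43433 on the other strand.

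The founding member of the family, msi, known in the fly for sense organ precursor divisions, where its protein represses translation of ttk, was present at similar levels in both cell types. It was listed at 112, 85.7 and 55.4 FPKM in neuroblasts and at 81.8 and 127 in neurons (FBgn0011666, chromosome 3R, 21341842 to 21431482), and the groups overlapped. With a log2 fold change of -0.33 (SE 0.36, 95% confidence interval -1.19 to 0.53, limma adjusted p = 0.4503), msi was not called. An interval of that width does not show that the levels were equal. Set against its relative, msi was 1.60, 4.77 and 252 times Rbp6 in neuroblasts and 0.247 and 0.260 times Rbp6 in neurons. On the log2 scale the ratio averaged 3.64 ± 3.84 (SD, n = 3) in neuroblasts and -1.98 ± 0.05 (SD, n = 2) in neurons. The difference of 5.62 had an exact two-sided permutation p = 0.2, the smallest the design allows, and was 3.45 without neuroblast 3. Every neuroblast replicate therefore had more msi than Rbp6 transcript per length, and both neuron replicates had more Rbp6 than msi.

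The RNA-binding protein genes shep and bru-3 were both lower in neuroblasts. The gene shep (alan shepard, FBgn0052423, chromosome 3L, 5148921 to 5271044), which acts in metamorphic growth of fly neurons, was listed at 52.8, 21.3 and 7.19 FPKM in neuroblasts, while neurons gave 136 and 253. The groups did not overlap, and neuron 2 was 1.86 times neuron 1. Its log2 fold change was -3.12 (SE 0.73, limma adjusted p = 0.00874). It was -2.67 without neuron 2 (limma adjusted p = 0.0826) and -1.98 within the shared flow cell (limma adjusted p = 0.0573), and neither passed. For bru-3 (FBgn0264001, chromosome 3L, 13516668 to 13796500), a Bruno or CELF family gene, the values were 11.8, 2.87 and 0.194 FPKM in neuroblasts and 42.1 and 96.1 in neurons. Neuroblast 1 was 60.9 times neuroblast 3, and the neurons also differed the most of the 10 genes, by 2.28 times. For bru-3 the log2 fold change was -4.05 (SE 0.92, limma adjusted p = 0.00773). Without neuron 2 it was -3.47 (limma adjusted p = 0.0765) and within the shared flow cell -2.61 (limma adjusted p = 0.0592), and neither passed.

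The KH-domain gene mub (mushroom-body expressed, FBgn0262737, chromosome 3L, 21837888 to 21925419) was the most abundant of the 10 in both cell types. It was listed at 248, 122 and 82.7 FPKM in neuroblasts and at 269 and 569 in neurons. The groups did not overlap, but neuroblast 1 lay close under neuron 1. The log2 fold change of mub was -1.52 (SE 0.53, 95% confidence interval -2.77 to -0.27, limma adjusted p = 0.0395), the weakest of the 8 calls. It was not called without neuron 1 (-2.06, limma adjusted p = 0.0524), without neuron 2 (-0.98, 0.262), without neuroblast 2 (-1.44, 0.0887), without neuroblast 3 (-1.16, 0.0981) or within the shared flow cell (-0.62, 0.360).

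Of the translational regulators tied to synapses, orb2 was lower in neuroblasts and Fmr1 was not called. The CPEB gene orb2 (FBgn0262573, chromosome 3L, 8925335 to 8947569), whose protein is needed for long-term memory in the fly, was listed at 12.0, 11.1 and 8.07 FPKM in neuroblasts and at 35.6 and 34.0 in neurons. It had the narrowest spread of the 10 genes in both cell types, 1.49 times among neuroblasts and 1.05 times between neurons. Its log2 fold change was -1.67 (SE 0.28, limma adjusted p = 0.00236). Both orb2 and elav were called in all 20 alternative analyses. Fmr1 (FBgn0028734, chromosome 3R, 5927142 to 5935843), the fly counterpart of the gene silenced in fragile X syndrome, was listed at 106, 83.7 and 51.8 FPKM in neuroblasts and 92.6 and 139 in neurons. The groups overlapped, with neuroblast 1 above neuron 1, and the log2 fold change of Fmr1 was -0.55 (SE 0.37, 95% confidence interval -1.42 to 0.31, limma adjusted p = 0.221).

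**Figure D2:**
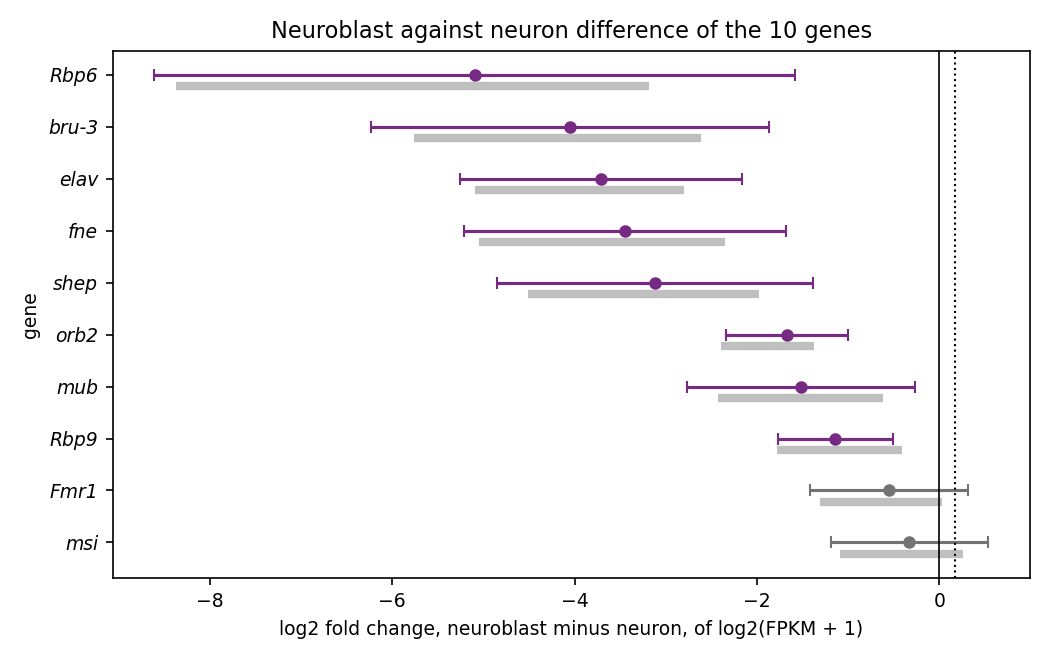
Log2 fold change, neuroblast minus neuron on log2(FPKM + 1), of the 10 genes with 95% confidence intervals, purple where called and grey where not. Grey bars behind give the range over the alternative analyses, the solid line marks 0 and the dotted line the median of all tested genes, 0.17. The interval of Rbp6 is the widest, and those of msi and Fmr1 cross 0.

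The median of all genes moved with the scaling between libraries. Over the 7975 tested genes the median log2 fold change stood at 0.17 in the values as deposited. It stood at -0.17 after scaling to the upper quartile, -0.11 after scaling by median ratios, 0.01 after quantile normalization and -0.53 after scaling to the protein-coding sum. With the last of these 33.3% of all calls were higher in neuroblasts, against 52.8% in the values as deposited. Relative to the median, msi stood at -0.50 and Fmr1 at -0.72 as deposited, and between -0.89 and -0.53 for msi and between -1.11 and -0.75 for Fmr1 under the other scalings. Fmr1 was called higher in neurons with quantile normalization (-1.10, limma adjusted p = 0.0462) and with the protein-coding sum (-1.31, limma adjusted p = 0.0381), while msi was not called under any scaling.

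File names give the flow cell, and one of them held neuroblast 1, neuroblast 2 and neuron 1, and each of the others held a single cell type. Within it elav was at -2.81 (limma adjusted p = 0.0126), fne at -2.35 (0.0158), Rbp9 at -1.17 (0.0498), Rbp6 at -3.18 (0.0436) and orb2 at -1.54 (0.0184). There msi was at 0.26 (limma adjusted p = 0.501) and Fmr1 at 0.03 (0.948). The directions of the 8 called genes were thus those of the fit over all replicates, while msi and Fmr1 lay near 0.

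Among the neuroblasts, replicate 1 was highest and replicate 3 lowest for 10 of the 10 genes. The same order held for 24.0% of all tested genes and for 59.7% of the 2381 genes called higher in neurons. The summed neuron markers had this order too, at 16.0%, 5.92% and 0.231% of their neuron mean in neuroblasts 1, 2 and 3. Rbp6, at 17.0%, 4.38% and 0.0536%, and bru-3, at 17.1%, 4.15% and 0.280%, lay near those shares, apart from the lower share of Rbp6 in neuroblast 3. For elav the shares were 15.1%, 9.35% and 2.65%, for fne 19.3%, 11.7% and 2.32%, and for shep 27.1%, 10.97% and 3.70%. In neuroblast 3 these 3 genes stood above the share of the summed neuron markers. That sum hides a spread of single markers in neuroblast 3, from brp at 0.0553 FPKM, against a neuron mean of 82.8, to Gad1 at 0.261, against 15.7. The rest of the 10 genes kept more of their neuron level in neuroblast 3, from 19.7% for mub and 20.7% for Rbp9 to 23.2% for orb2, 44.6% for Fmr1 and 53.0% for msi. The part of neuron RNA in the neuroblast libraries in these values was not tested. With neuroblast 3 alone the log2 fold changes were -5.09 for elav, -8.37 for Rbp6, -5.76 for bru-3 and -2.23 for mub. These had to be larger in size than with all 3 replicates, because neuroblast 3 was the lowest neuroblast for each of the 10 genes. The fit on neuroblast 3 alone therefore says nothing about neuron RNA in the other neuroblasts. Where 1 replicate stands for a cell type, in that fit, within the flow cell or with a neuron left out, the lone sample is assumed to vary like the other cell type.

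**Figure D3:**
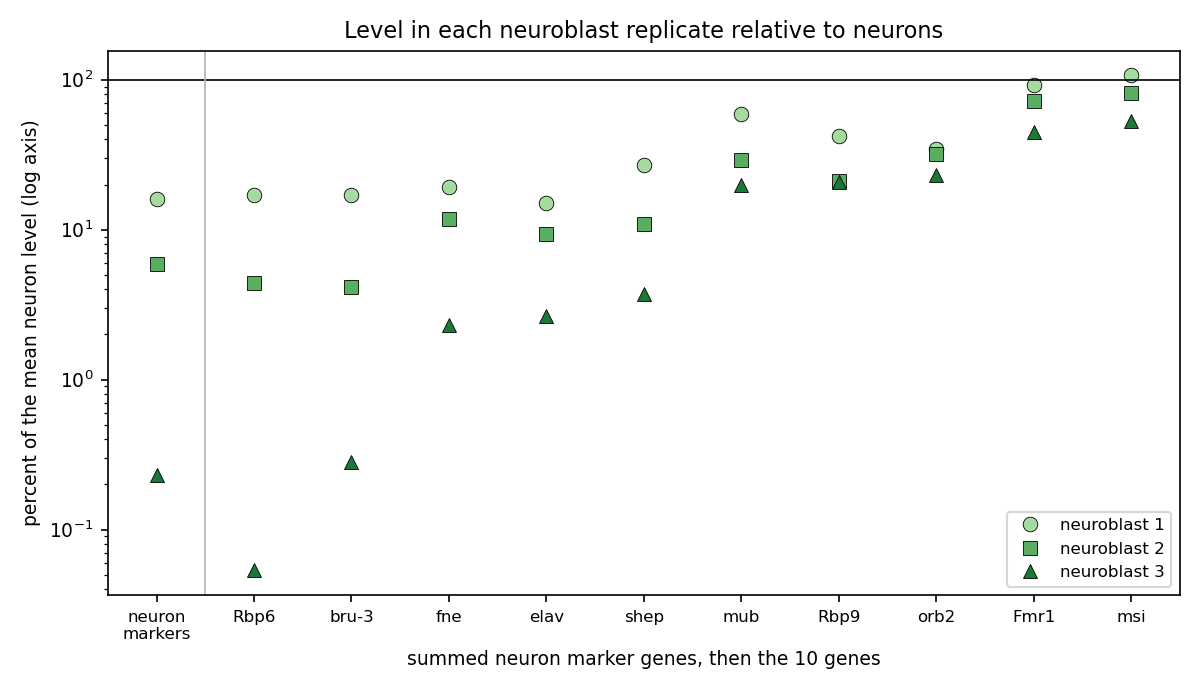
Level in each neuroblast replicate as a percentage of the mean of the neurons, on a log axis, for the sum of the 9 neuron markers and for each of the 10 genes, with a line at 100%. Rbp6 and bru-3 lie close to the neuron markers, except for Rbp6 below them in neuroblast 3, and msi, Fmr1, mub, orb2 and Rbp9 stay at 19.7% or more in neuroblast 3.

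The sum of the 10 genes was 700.0, 399 and 220 FPKM in neuroblasts and 1433 and 2328 in neurons. That was 0.127%, 0.0873% and 0.0294% of all FPKM in neuroblasts and 0.440% and 0.678% in neurons. In neuroblasts mub, msi and Fmr1 made up most of the sum. The share of mub was 35.5%, 30.7% and 37.6% in neuroblasts and 18.8% and 24.5% in neurons, that of msi 15.9%, 21.5% and 25.2% in neuroblasts and 5.71% and 5.47% in neurons, and that of Fmr1 15.2%, 21.0% and 23.6% in neuroblasts and 6.46% and 5.99% in neurons. In neurons elav and Rbp6 took the place of msi and Fmr1, elav with 8.17%, 8.86% and 4.55% of the sum in neuroblasts and 22.4% and 18.7% in neurons, and Rbp6 with 9.95%, 4.50% and 0.10% in neuroblasts and 23.1% and 21.0% in neurons.

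**Figure D4:**
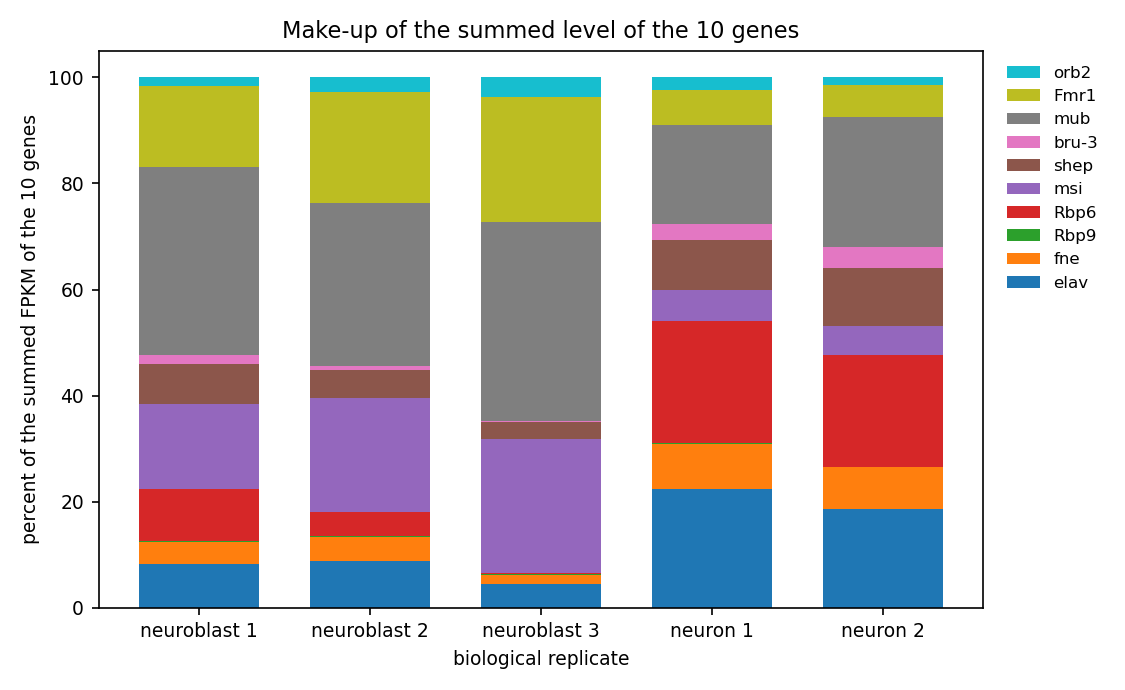
Percentage of the summed FPKM of the 10 genes that each gene makes up, as stacked bars for the 3 neuroblast replicates on the left and the 2 neuron replicates on the right. The shares of mub, msi and Fmr1 are larger in every neuroblast replicate than in either neuron replicate, and those of elav and Rbp6 are larger in both neuron replicates.

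In neuroblasts the order of mean FPKM was mub 151, msi 84.2, Fmr1 80.5, elav 34.2, Rbp6 29.3, shep 27.1, fne 16.9, orb2 10.4, bru-3 4.96 and Rbp9 0.871. The ranges over replicates overlapped for all 9 neighbouring pairs in that order. Within each neuroblast replicate, however, mub was above msi, msi above Fmr1 and Fmr1 above elav. The step from msi to Fmr1 was small, and in the first library of neuroblast 2 msi, at 82.8 FPKM, was below Fmr1, at 85.96. In neurons the order of mean FPKM was mub 419, Rbp6 410.1, elav 378, shep 194, fne 151, Fmr1 116, msi 105, bru-3 69.1, orb2 34.8 and Rbp9 3.12. There the ranges of 6 of 9 neighbouring pairs overlapped, and the gaps without overlap lay between elav and shep, between bru-3 and orb2, and between orb2 and Rbp9. Within each neuron replicate the order held for every neighbouring pair but mub and Rbp6. In neuron 1 Rbp6, at 331 FPKM, was above mub, at 269.

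The authors' deposited table, made with DESeq on counts, lists 3532 genes with an adjusted p of at most 0.00995 and holds 6 of the 10. In the authors' deposited table the log2 fold change of neuroblast over neuron was -3.70 for elav, -3.35 for fne, -3.90 for Rbp6, -3.14 for shep, -3.88 for bru-3 and -1.87 for orb2. The smallest of their adjusted p-values in the authors' deposited table was 1.02e-11 for bru-3 and the largest 0.00054 for orb2. Rbp9, mub, msi and Fmr1 are not among the genes that the authors' deposited table lists.

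Related RNA-binding protein genes were more mixed. A further 13 genes came from the Bruno, CPEB, Sxl, STAR, Rbfox, Muscleblind and similar families. Of these, 2 passed as higher in neuroblasts and 4 as higher in neurons, with 7 not called and a median log2 fold change of -0.50. The 2 are a smaller share than the 33.4% of all tested genes for neuroblasts, and the 4 a share near the 29.9% for neurons. With the protein-coding sum these counts were 0 and 8, and without neuron 2 they were 0 and 2. The count higher in neuroblasts was 4 without neuroblast 3 and within the shared flow cell, 1 without neuroblast 1, and 0 without neuroblast 2, without neuron 1 and with upper quartile or median ratio scaling. With the replicate block it was 4. Under the protein-coding sum 3493 of all 7975 tested genes passed as higher in neurons, against 2381 in the values as deposited. The 8 of 13 under that scaling is to be read against this larger number. The Bruno gene aret, with 6.44, 3.38 and 0.0255 FPKM in neuroblasts and 52.9 and 56.7 in neurons, was lower in neuroblasts by a log2 fold change of -4.12 (limma adjusted p = 0.00346). Its relative bru-2 was at most 0.213 FPKM in neuroblasts and 2.14 and 1.13 in neurons (-1.19, limma adjusted p = 0.00528), and it entered the test through the neurons alone. Of the Bruno family genes, aret and bru-3 were called lower in neuroblasts over all replicates, aret in every alternative and bru-3 with the losses given above. For bru-2 the call adds little, because a gene that passes the filter on its neurons alone can hardly be called the other way. The call of bru-2 was lost with quantile normalization (-0.57, limma adjusted p = 0.0861), bru-2 was not tested with the filter at 5 FPKM, and its value ran from -2.97 with a pseudocount of 0.1 to -0.37 with 5. The Rbfox gene A2bp1 was at 45.0, 19.9 and 13.1 FPKM in neuroblasts and 81.9 and 177 in neurons (-2.35, limma adjusted p = 0.00865), and was not called without neuron 2 (-1.80, 0.0876) or within the shared flow cell (-1.42, 0.0992). Among close family members, the CPEB gene orb stood at 4.71, 3.59 and 2.13 FPKM in neuroblasts and 4.85 and 5.39 in neurons (-0.50, limma adjusted p = 0.230). The Sxl relative ssx stood at 76.4, 65.0 and 79.4 FPKM in neuroblasts and 62.9 and 68.8 in neurons (0.15, limma adjusted p = 0.582), and its sign turned under all 4 other scalings, to -0.22 (0.332) with the upper quartile, -0.16 (0.482) with median ratios, -0.29 (0.253) with quantiles and -0.61 (0.0373) with the protein-coding sum.

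The genes how and ps were the ones called higher in neuroblasts, and both calls were fragile. The STAR-family gene how was at 21.4, 13.8 and 7.68 FPKM in neuroblasts and 3.52 and 5.12 in neurons (1.44, limma adjusted p = 0.0253). The splicing regulator ps was at 14.0, 11.2 and 6.60 FPKM in neuroblasts and 2.56 and 4.29 in neurons (1.36, limma adjusted p = 0.0192). The groups did not overlap for either gene. Without neuron 1 how was at 1.22 (limma adjusted p = 0.160) and ps at 1.08 (0.149), without neuron 2 they were at 1.66 (0.0832) and 1.65 (0.0577), and without neuroblast 2 at 1.41 (0.0609) and 1.2996 (0.0526), and without neuroblast 1 how was at 1.11 (0.0525). With the protein-coding sum how was at 0.78 (limma adjusted p = 0.212) and ps at 0.73 (0.189). The sex determination gene Sxl, at 83.2, 54.7 and 35.6 FPKM in neuroblasts and 92.8 and 149 in neurons, was called higher in neurons (-1.10, limma adjusted p = 0.0475) but not without neuroblast 2 (0.0916), neuroblast 3 (0.0893), neuron 1 (0.0754) or neuron 2 (-0.76, 0.281). Within the shared flow cell Sxl was at -0.45 (limma adjusted p = 0.332) and with the replicate block at -0.80 (0.156), and its call was lost in 10 of the 20 alternatives.

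Partners in translational control were a mixed list. The share called lay near the 29.9% of all tested genes for neurons and under the 33.4% for neuroblasts. Of 20 tested genes out of 21, 1 was higher in neuroblasts, 7 were higher in neurons and 12 were not called, with a median log2 fold change of -0.13, and the count higher in neurons was 4 without neuron 2, 4 with the replicate block and 12 with the protein-coding sum. The count higher in neuroblasts was 2 without neuroblast 2 or neuroblast 3. The antiproliferative gene Tob, at 0.347, 0.0880 and 0.0846 FPKM in neuroblasts and 1.95 and 3.29 in neurons (-1.61, limma adjusted p = 0.00186), entered the test through the neurons alone. Both brat and pum, whose proteins repress translation together with Nanos, were among the 7. The tumour suppressor brat was at 209, 208 and 114 FPKM in neuroblasts and 649 and 601 in neurons (-1.87, limma adjusted p = 0.00356). The gene pum was at 51.9, 35.7 and 21.2 FPKM in neuroblasts and 123 and 160 in neurons (-2.01, limma adjusted p = 0.00399). Of the deadenylation genes, twin, the CCR4 subunit, was at 34.3, 30.7 and 25.3 FPKM in neuroblasts and 68.6 and 70.6 in neurons (-1.19, limma adjusted p = 0.00519). The remaining genes of the 7, named after their values were seen to complete the count, were AGO1 (-1.21, limma adjusted p = 0.0276) and gw (-1.03, 0.0160) of the RISC machinery and the CYFIP gene Sra-1 (-0.72, 0.0470). Without neuron 2 none of these was called (AGO1 0.160, gw 0.125, Sra-1 0.159). Without neuron 1 AGO1 (0.0915) and Sra-1 (0.192) were not called, and Sra-1 was also not called without neuroblast 1 (0.135) or neuroblast 2 (0.129). The gene called higher in neuroblasts was cup, a partner of eIF4E that represses translation, at 2.78, 2.69 and 5.28 FPKM in neuroblasts and 0.435 and 0.108 in neurons (1.81, limma adjusted p = 0.00277). It entered the test through the neuroblasts alone, was not tested with the filter at 5 FPKM, and ran from 3.40 with a pseudocount of 0.1 to 0.69 with 5.

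The last list holds transcripts described in the fly as bound or regulated by these proteins. Of 15 tested, 1 was higher in neuroblasts, 7 were higher in neurons and 7 were not called, with a median log2 fold change of -1.28, and the count higher in neurons was 4 without neuron 2 and 11 with the protein-coding sum. The count higher in neuroblasts was 3 without neuroblast 3 and 0 without either neuron. The 8 of 15 called in either direction are a smaller share than the 63.3% of all tested genes. By direction, the 7 higher in neurons are a larger share than the 29.9% of all tested genes. The 1 higher in neuroblasts is a smaller share than the 33.4%. Like the 10 genes, these targets were chosen with earlier results of these data known. The shares therefore describe the list and are no test of it. Among the 7, Hr46, at most 0.649 FPKM in neuroblasts and 1.97 and 2.69 in neurons, entered the test through the neurons alone. Dscam, the neuronal recognition gene and a described target of FMR1, was at 1.91, 1.69 and 0.393 FPKM in neuroblasts and 19.0 and 19.7 in neurons (-3.20, limma adjusted p = 0.000906). Of the described splicing targets of ELAV, these were lower in neuroblasts: the transcription factor gene ewg at 28.8, 20.9 and 13.4 FPKM in neuroblasts and 130 and 157 in neurons (-2.77, limma adjusted p = 0.000967), and arm, the fly beta-catenin, at 92.3, 82.1 and 109 FPKM in neuroblasts and 429 and 354 in neurons (-2.04, limma adjusted p = 0.00103). A further ELAV target, the adhesion gene Nrg, was not called (-0.52, limma adjusted p = 0.137). These are gene totals and do not show which isoform was made. The microtubule-associated gene futsch, a described target of FMR1, was at 5.65, 3.49 and 0.0542 FPKM in neuroblasts and 48.1 and 43.6 in neurons (-3.89, limma adjusted p = 0.00359). Rac1, another described FMR1 target, was at 101, 110 and 110 FPKM in neuroblasts and 57.0 and 61.8 in neurons (0.84, limma adjusted p = 0.0149), and was not called without neuron 1 (0.78, 0.103), without neuron 2 (0.90, 0.0721), or under any other scaling, at 0.08 (0.784) with the protein-coding sum. For ttk, the described target of MSI, the values were 5.66, 4.69 and 3.27 FPKM in neuroblasts and 10.02 and 9.95 in neurons (-1.01, limma adjusted p = 0.0253).

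**Figure D5:**
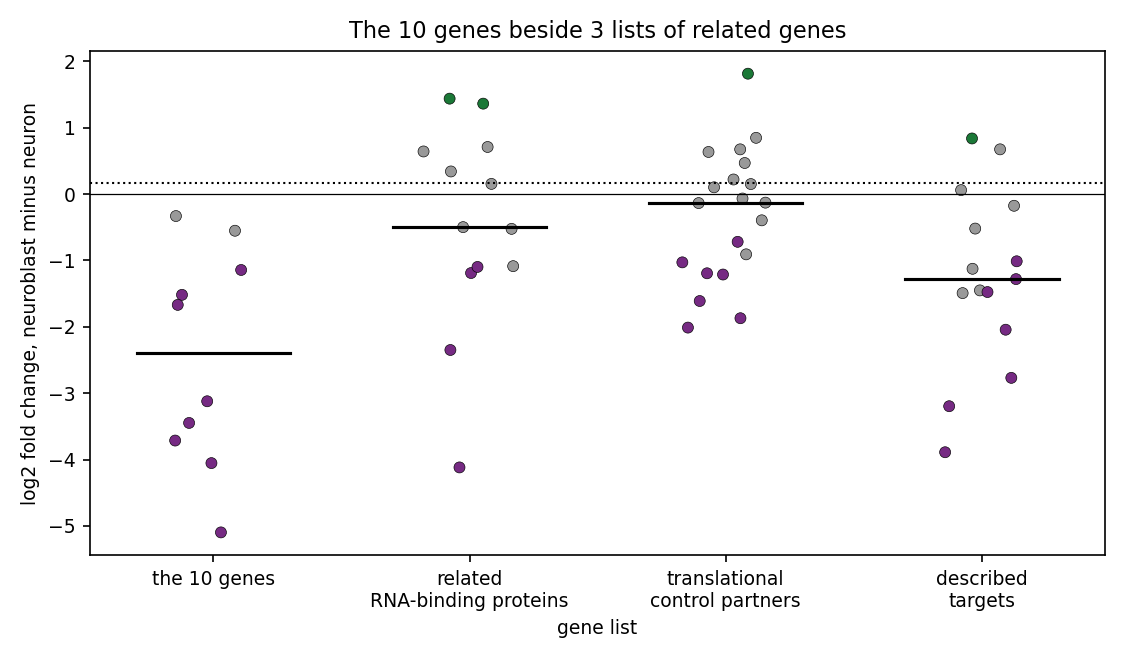
Log2 fold change, neuroblast minus neuron, of the 10 genes, 13 related RNA-binding protein genes, 20 translational control partners and 15 described targets, one point a gene. Purple points were called higher in neurons, green higher in neuroblasts and grey neither, black lines are medians (-2.40, -0.50, -0.13 and -1.28) and the dotted line is the median of all tested genes (0.17).

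Likeness to each gene was measured as the Euclidean distance between centred log2(FPKM + 1) values over the 5 biological replicates, and the nearest genes are given as a description. Nearest to elav were synaptogyrin at a distance of 0.169, CG4467 at 0.191 and Prosap at 0.213, while its nearest fellow of the 10 was fne at 0.416. The pseudocount of 1 compresses low values in this measure. In neuroblast 3 synaptogyrin was at 0.175 FPKM, against 30.6 and 40.3 in neurons 1 and 2, while elav kept 2.65% of its neuron mean there. Nearest to msi were Mob2 at 0.144, CG8188 at 0.193 and Pabp2 at 0.2001, with Fmr1 at 0.248. Nearest to bru-3 were Ggamma30A at 0.267 and CG11294 at 0.307. The nearest genes to Rbp6 lay further off, with jim at 0.883, nerfin-1 at 0.931 and cpx, a marker of the neuron list, at 0.973. Profiles were centred but not scaled, so distances tend to grow with the size of a gene's change, which was largest for Rbp6. Its larger distances therefore do not show that it lacks genes of like pattern. Nearest to orb2 were CG4080 at 0.107 and mex1 at 0.113.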

How the data were processed

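Cells were sorted by FACS, and poly(A) RNA was sequenced as strand-marked dUTP libraries, per the labels' protocols. Per the submitters' processing notes the tools were Cufflinks 1.3.0, DESeq 1.8.3, HTSeq, TopHat 1.4.1 and BWA 0.6.1. Neither the genome build nor the counting strand is given in the sources used here. The deposited Cufflinks values are FPKM per gene with their interval, and coordinates are as those files give them. The authors' deposited table holds normalized mean signal (counts scaled by DESeq) per cell type, the ratio or fold change, its log2 and the p-value with its adjustment, and was used for comparison only. No column lacked a sample (0 columns).

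Technical replicates were averaged on the log2(FPKM + 1) scale (pseudocount 1), which understates the change of low genes. The 7975 of 14210 genes that reached 1 FPKM in 2 or more of the 5 biological replicates were compared with limma 3.58.1 in R 4.3.3 (intensity trend, two-sided, Benjamini-Hochberg adjustment, threshold 0.05). Levels printed are FPKM averaged over technical replicates. Shares and ratios were tested by exact permutation over replicates. The script was tested on simulated data. Of the gene IDs, 13575 matched the reference annotation, and that of orb2 did not.

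All 10 genes are named. From each list the members with the smallest adjusted p in each direction are named, up to 4, and close family members. The 3 nearest genes were found for each gene by likeness. The members and lists were chosen with earlier results of these data known. Alternatives covered pseudocount, filter, scaling, technical replicates, prior variance, replicate block, threshold, flow cell and each replicate left out. Neuroblast 3 alone was added after seeing the data.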

Additional observations from a re-analysis of the deposited data

How the results depend on the processing

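The number of the 10 genes called higher in neurons was 8, and it was 5 within the shared flow cell and 3 to 8 over the analyses that left out 1 replicate, 3 without neuron 2 and 5 without neuron 1. Of all tested genes, 2667 were called higher in neuroblasts, 1744 with scaling to the protein-coding sum and 1674 to 2629 with 1 replicate left out, and 2381 were called higher in neurons, 3493 with that scaling and 1600 to 2432 with 1 replicate left out. Neuroblast 3 alone was chosen after seeing the data, and its larger changes follow from its being the lowest neuroblast for each of the 10. With the replicate block 7 of the 10 were called higher in neurons, mub being lost (-1.16, limma adjusted p = 0.134), and 2047 and 1977 genes were called higher in neuroblasts and in neurons. Deviations from the cell type mean had correlations of -0.52 and -0.39 between same-numbered samples. With 2 neurons their deviations mirror each other, so these values cannot show whether the replicate numbers pair the samples. Other lost calls were Rbp9 with quantile normalization (-0.41, 0.222) and with all libraries in the fit (-1.15, 0.0600), Rbp6 with a pseudocount of 0.1 (-5.77, 0.0529) and mub without a filter (0.0655), and Rbp9 was not tested with a filter at 5 FPKM. The uncalled genes ssx, at -0.61 with the protein-coding sum (limma adjusted p = 0.0373) and negative under the other scalings, and msi and Fmr1, at 0.26 and 0.03 within the shared flow cell, turned their sign. The causes were not tested. In neuroblast 3, the deepest replicate, bru-3 was low with wide intervals, 0.196 FPKM (0 to 0.392) and 0.191 FPKM (0.110 to 0.273) in its libraries.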
